A study of Solanum lycopersicum with 9 samples.

Results

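The pre-mRNA splicing machinery of imbibed tomato (Solanum lycopersicum) seeds was described through the 130 genes, of 40229 rows in the deposited table, whose description names a splicing factor, a small nuclear ribonucleoprotein, pre-mRNA, an Sm-like protein or the spliceosome. The list was drawn up with earlier results of these data known. RNA came from seeds of an SlLBD40 knockout, seeds of an SlWRKY37 knockout and wild-type (WT) seeds, all taken 6 h after water uptake began, with 3 libraries in each group. SlLBD40 is a LOB domain protein and SlWRKY37 a WRKY protein, both from families of plant transcription factors. The labels do not give the mutations, the number of lines or the parent cultivar, and do not say if the 3 libraries of each genotype are independent seed batches. P-values therefore measure only the spread between these libraries, which may be technical. The gene IDs are shortened in the table, so the rows of the edited genes were not settled and the genotype labels were not checked against them. For the same reason a gene is called here by its description and chromosome, and by a copy number, in table order, where more rows would match.

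Most plant genes are transcribed with introns, which the spliceosome cuts out of the pre-mRNA. The U1 particle binds the start of the intron and the U2 particle its branch site, the U4/U6.U5 particle then joins, and a set of proteins around Prp19 helps to form and hold the catalytic centre. Each of the U1, U2, U4 and U5 RNAs carries a ring of Sm proteins, and U6 carries a ring of the related Sm-like (LSm) proteins. SR proteins, which are rich in serine and arginine, bind exons and recruit these particles, and in plants their own transcripts are often alternatively spliced. A dry seed stores RNA made during maturation and resumes transcription during imbibition.

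Values are expression values taken as FPKM, that is, fragments scaled by transcript length and library size, so levels of different genes are compared per length. The sum of all values in a library lay between 856291 and 918103, read counts are not part of the table, and the depth behind a value is unknown. A gene was tested when its mean over the 9 libraries was at least 1, which 96 of the 130 splicing genes and 18346 genes in all met. The splicing genes were abundant: the median of their mean values was 55.2, against 12.01 for all tested genes, and 82 of the 96 lay above that median. Their means ran from 1.06 to 536. Tests were made on log2(value + 1) with limma, with Benjamini-Hochberg adjustment over all 18346 genes, and a gene was called at an adjusted p below 0.05. Log2 changes of splicing genes are printed with their standard error. Through the added 1, a log2 change understates the ratio of low values.

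The first comparison asked how RNA levels of the splicing genes in SlLBD40 knockout seeds differed from those in WT seeds. The splicing genes were lower in the knockout or did not pass the test: 47 of 96 fell (49.0%), 0 rose by limma and 49 were not called, where 37.2% of all tested genes were called, 19.2% lower and 18% higher. At an unadjusted p below 0.05 by limma, 54 were lower and 1 was higher, with no count over all tested genes made at that threshold. The called genes stood at 45.6 to 80.04% of their WT mean. Of these, 4 fell by at least 1 on the log2 scale, where 10.9% of all tested genes were called with an absolute change that large and 4.13% were called with a decrease that large. The genes that fell furthest encode SR proteins (SR34 on chromosome 1, RSZ22), the CWC22-like protein on chromosome 8 and splicing factor 8, the large protein at the centre of the spliceosome. The 8 genes with the largest decreases were picked among called genes whose LBD40 and WT libraries did not overlap. For them that separation is no further evidence.

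The median log2 change of the 96 splicing genes was -0.36, beside -0.02 for all tested genes, and 83 of them had a negative change. Relative to the WT mean, 16 genes were below 60%, 36 between 60 and 80%, 32 between 80 and 100%, and 12 at or above 100%. For 64 genes all 3 LBD40 knockout libraries lay below all 3 WT libraries, which held for 29.5% of all tested genes, and for 2 genes they lay above, which held for 27.3%. Since the splicing genes are more abundant than most, they were also read beside genes with a mean of at least 5. There 48 of 90 splicing genes fell (53.3%) and 0 rose. Of all 13055 such genes 43.1% were called, 23.3% lower and 19.8% higher. The count of called splicing genes was 26 without LBD40 knockout replicate 1, 29 without LBD40 knockout replicate 2 and 28 without WT replicate 2. In all, 25 of the 47 genes were called without each library in turn. Such counts were not made over all tested genes, so they do not set the splicing genes apart.

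**Figure D1:**
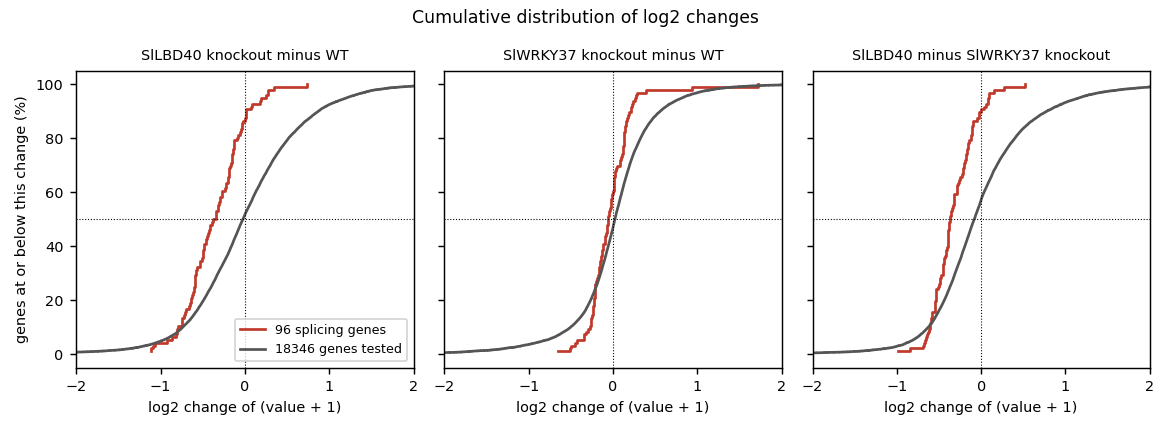
Cumulative share of genes (vertical axis, percent) at or below a given log2 change (horizontal axis), for the 96 tested splicing genes in red and all 18346 tested genes in grey, in the 3 comparisons. In both comparisons of the LBD40 knockout the red curve crosses 50% left of 0 (medians -0.36 and -0.37), while for the WRKY37 knockout against WT it crosses near 0 (-0.06).

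RNA of seed maturation genes took a smaller share of the libraries of both knockouts. Marker genes of the maturing seed were rows described as oleosin, vicilin, legumin, late embryogenesis abundant or dehydrin. They numbered 130, of which 76 were tested. In the LBD40 knockout against WT 34 of them fell and 14 rose by limma, where 19.2% of all tested genes fell and 18% rose. In the WRKY37 knockout against WT 32 fell and 4 rose, where 4.56% of all tested genes fell and 4.82% rose. They summed to 2.45 to 3.06% of the library in LBD40 knockout seeds, 2.76 to 4.78% in WRKY37 knockout seeds and 7.26 to 9.12% in WT seeds. Cell division genes (138 found, 95 tested) were rows whose description names a cyclin-dependent kinase, an A-, B- or D-type cyclin or a core histone. The parts of histones and of the others were not separated. The list summed to 1.17 to 1.29% in LBD40 knockout seeds, 0.729 to 0.841% in WRKY37 knockout seeds and 0.940 to 1.06% in WT seeds. In the LBD40 knockout against WT 43 genes of this list rose and 11 fell by limma, and in the WRKY37 knockout against WT 1 rose and 10 fell. Endosperm weakening genes (55 found, 27 tested) were any rows described as an expansin or a mannanase. They summed to 0.0623 to 0.0765% in LBD40 knockout seeds, 0.0630 to 0.0951% in WRKY37 knockout seeds and 0.0384 to 0.0489% in WT seeds. Against WT, 12 were higher and 2 lower in the LBD40 knockout, and 9 higher and 0 lower in the WRKY37 knockout. Green tissue genes (185 found, 52 tested) were rows naming a chlorophyll a-b binding protein, the small subunit of ribulose bisphosphate carboxylase or a photosystem. They summed to 0.0818 to 0.105% in LBD40 knockout seeds, 0.0357 to 0.0529% in WRKY37 knockout seeds and 0.0495 to 0.0936% in WT seeds. Of these 13 were higher and 1 lower in the LBD40 knockout than in WT, and 2 were higher and 8 lower in the WRKY37 knockout than in WT. Between the knockouts 32 were higher and 3 lower in the LBD40 knockout, where 12.9% and 14.1% of all tested genes were. The part of any of these lists in the levels of splicing genes was not tested. In whole seeds, fewer cells of a type and less RNA per cell cannot be told apart.

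**Figure D2:**
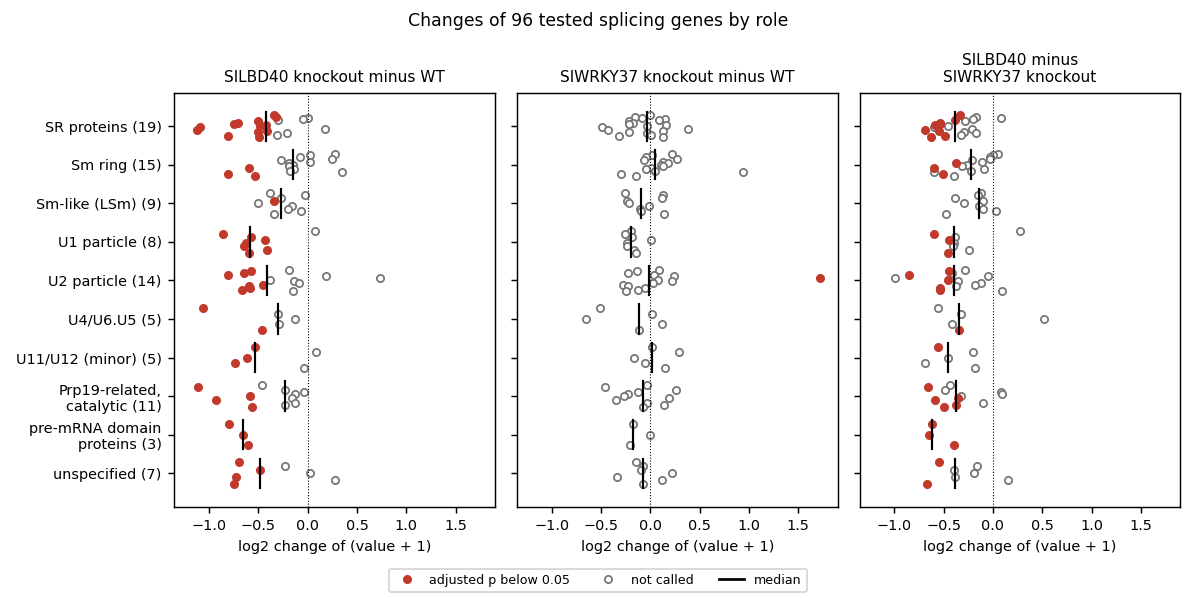
Log2 change of (value + 1) for each of the 96 tested splicing genes (circles; red where the limma adjusted p was below 0.05), in rows by role with the number of genes in brackets, and the median of each role as a vertical bar. In the LBD40 knockout against WT all 47 red circles lie left of 0 and every role has a median below 0, while the WRKY37 knockout against WT has 1 red circle.

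The Sm ring, the protein core shared by the spliceosomal particles, held many genes near their WT level. Of 15 tested Sm genes 3 fell (20%, where 19.2% of all tested genes fell) and 12 were not called, with a median log2 change of -0.15. Small nuclear ribonucleoprotein Sm D2 on chromosome 9, a ring subunit, had 207, 204 and 249 in the LBD40 knockout, 268, 322 and 209 in the WRKY37 knockout and 233.6, 258 and 238 in WT. The LBD40 and WT libraries overlapped and the difference did not pass limma (log2 change -0.15 ± 0.15, adjusted p = 0.469). Small nuclear ribonucleoprotein G on chromosome 5 had 220.1, 206 and 274 in the LBD40 knockout, against 176, 214 and 199 in WT. Small nuclear ribonucleoprotein E on chromosome 6 had 56.1, 49.98 and 61.4 in the LBD40 knockout, against 52.9, 57.5 and 54.5 in WT. Neither passed the test. The 3 Sm genes that fell were both genes described as Small nuclear ribonucleoprotein-associated protein and the second Sm D3 copy on chromosome 2. The associated protein on chromosome 1 had 32.6, 33.5 and 38.03 in the LBD40 knockout, 40.1, 55.96 and 54.5 in the WRKY37 knockout and 58.7, 65.1 and 60.1 in WT. All LBD40 libraries lay below both other groups (limma, log2 change -0.80 ± 0.14, adjusted p = 0.00209). That on chromosome 5 had 65.4, 62.7 and 73.5 in the LBD40 knockout, against 95.5, 102 and 94.5 in WT (limma adjusted p = 0.0134).

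Copies of 1 Sm description did not all give the same call. Copy 2 of Sm D3 on chromosome 2 had 78.4, 81.8 and 103 in the LBD40 knockout, against 127, 132 and 137 in WT (limma, log2 change -0.59 ± 0.15, adjusted p = 0.0118). Copy 1 on the same chromosome had 84.8, 66.8 and 93.6 in the LBD40 knockout, against 92.2, 87.6 and 97.8 in WT. The Sm D3 gene on chromosome 3 had 104, 100.2 and 122 in the LBD40 knockout, against 124, 118 and 117 in WT. Those 2 did not pass (adjusted p = 0.447 and 0.375), and the difference between copies was not tested. Genes with the same description may be near-identical copies between which the counting could split reads, so the values of single copies are uncertain.

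The 9 tested LSm genes encode proteins that hold U6 RNA in the nucleus or, with LSm1, take part in mRNA decay in the cytoplasm. Of these genes 1 fell (11.1%, where 19.2% of all tested genes fell) and 8 were not called (median log2 change -0.27). LSm2 on chromosome 9 fell to 42.3, 48.4 and 50.9 in LBD40 knockout seeds, against 60.6, 60.6 and 58.96 in WT seeds (limma, log2 change -0.34 ± 0.12, adjusted p = 0.0406). LSm3 on chromosome 11, the most abundant LSm gene, had 114, 130.3 and 148 in the LBD40 knockout, 159, 212 and 119 in the WRKY37 knockout and 169, 183 and 203 in WT. Its LBD40 libraries lay below all WT libraries, but the difference did not pass limma (log2 change -0.50 ± 0.19, adjusted p = 0.0607); it passed under median-ratio scaling and without either of WRKY37 knockout replicates 2 and 3. LSm5 on chromosome 9, another ring subunit, was even, with 89.1, 83.8 and 99.1 in the LBD40 knockout, 82.9, 103 and 80.5 in the WRKY37 knockout and 96.05, 92.8 and 94.8 in WT.

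There were 8 tested genes for proteins specific to the U1 particle, which reads the 5′ splice site. In LBD40 knockout seeds 7 fell (87.5%, where 19.2% of all tested genes fell) and 1 was not called (median log2 change -0.59). The most abundant, the U1 70 kDa protein on chromosome 2, which binds U1 RNA and contacts SR proteins, had 171, 193 and 222 in the LBD40 knockout, 251, 308 and 217 in the WRKY37 knockout and 281, 324 and 298 in WT. Every LBD40 library lay below every WT library, and the decrease passed limma (log2 change -0.63 ± 0.14, adjusted p = 0.00828). Its much rarer namesake on chromosome 9 also fell, with 6.09, 5.86 and 6.78 in the LBD40 knockout, against 10.7, 12.4 and 8.15 in WT (limma, log2 change -0.64 ± 0.18, adjusted p = 0.0184).

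Both U1 C genes, whose protein steadies the pairing of U1 with the 5′ splice site, fell. The gene on chromosome 6 had 25.2, 27.2 and 34.2 in the LBD40 knockout, against 40.3, 51.2 and 40.5 in WT (limma adjusted p = 0.00967). The gene on chromosome 1 had 19.6, 18.1 and 19.9 in the LBD40 knockout, against 23.6, 28.6 and 25.4 in WT (limma adjusted p = 0.0216). Protein 40A, which in yeast bridges the U1 particle and the branch site, has a pair of genes that fell as well. The gene on chromosome 11 had 12.1, 11.9 and 14.4 in the LBD40 knockout, 18.6, 26.04 and 16.1 in the WRKY37 knockout and 23.7, 25.6 and 22.6 in WT. This put the LBD40 knockout at 53.3% of the WT mean (limma, log2 change -0.86 ± 0.17, adjusted p = 0.00393). Its copy on chromosome 7 had 22.8, 27.7 and 30.99 in the LBD40 knockout, against 39.5, 40.5 and 42.3 in WT (limma adjusted p = 0.0345). Factor 39-like on chromosome 2, also a U1 protein in yeast, was the U1 gene that was not called, with 5.24, 6.40 and 5.60 in the LBD40 knockout, against 4.92, 5.67 and 5.57 in WT.

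In the U2 group, which recognises the branch site, 7 of 14 tested genes fell (50%, where 19.2% of all tested genes fell). The other 7 were not called, and the median log2 change of the group was -0.42. Splicing factor 3B subunit 3 on chromosome 4, a scaffold of the complex that holds the branch site, had 17.1, 18.9 and 21.6 in the LBD40 knockout, 29.9, 46.6 and 31.2 in the WRKY37 knockout and 34.03, 34.8 and 34.2 in WT. The 3 LBD40 libraries lay below the other 6, and the decrease from WT passed limma (log2 change -0.81 ± 0.17, adjusted p = 0.00471). The SF3a60 homolog on chromosome 3, a subunit of the partner complex SF3a, had 109, 124 and 129 in the LBD40 knockout, 154, 217 and 159 in the WRKY37 knockout and 178, 185 and 182 in WT. This was the most abundant gene of the U2 group, and its LBD40 libraries again did not overlap the others (limma, log2 change -0.59 ± 0.13, adjusted p = 0.00806).

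Other subunits of the same complexes ranged from lower to even. Both genes for 3B subunit 2 fell (limma adjusted p = 0.00996 and 0.0228). The gene on chromosome 2 had 65.6, 74.4 and 78.2 in the LBD40 knockout, against 101, 112 and 114 in WT. That on chromosome 3 had 18, 20.6 and 20.9 in the LBD40 knockout, against 31.6, 30.5 and 32.4 in WT. In neither did the groups overlap. Subunit 5 on chromosome 8 had 13.99, 16.4 and 16.8 in the LBD40 knockout, against 20.8, 21.9 and 19.4 in WT and missed the threshold (limma adjusted p = 0.0512). Subunit 4 on chromosome 11 had 18.6, 25.7 and 23.3 in the LBD40 knockout, against 21.6, 21.5 and 15.99 in WT (adjusted p = 0.413). U2 protein B, which binds U2 RNA, has a pair of genes. The gene on chromosome 9 fell, with 83.5, 79.4 and 81.03 in the LBD40 knockout, against 111, 113 and 112 in WT (limma adjusted p = 0.0134). That on chromosome 6 was not called, with 55.02, 52.6 and 52.99 in the LBD40 knockout, against 60.3, 56.8 and 54.4 in WT.

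For the U4/U6.U5 particle 10 genes were found and 5 tested. Of these 2 fell (40%, where 19.2% of all tested genes fell) and 3 were not called (median log2 change -0.31). Splicing factor 8 on chromosome 7, known as Prp8, had 37.2, 48.1 and 54.5 in the LBD40 knockout, 62.9, 90.6 and 55.05 in the WRKY37 knockout and 92.7, 108 and 92.02 in WT. Its LBD40 libraries were all below every other library, at 47.8% of the WT mean (limma, log2 change -1.06 ± 0.19, adjusted p = 0.00273). Prp31-like on chromosome 8, which binds the U4/U6 RNA pair, had 79.8, 87.8 and 94.5 in the LBD40 knockout, 106, 109.5 and 117 in the WRKY37 knockout and 127, 125 and 109.6 in WT. Its LBD40 libraries did not overlap the others (limma, log2 change -0.46 ± 0.10, adjusted p = 0.0078). Prp3 on chromosome 6, another U4/U6 protein, had 11.3, 10.6 and 11.5 in the LBD40 knockout, against 14.9, 12.9 and 13.8 in WT and did not pass. Factor 38A on chromosome 1, a protein needed for activation of the spliceosome, had 41.8, 49.6 and 56.5 in the LBD40 knockout, against 58.6, 61.1 and 62.6 in WT and did not pass either.

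The minor spliceosome, which removes a rare class of introns with its own U11/U12 particle, was represented by 7 genes, 5 of them tested. Of these 3 fell (60%, where 19.2% of all tested genes fell) and 2 were not called (median log2 change -0.53). The 25 kDa protein on chromosome 11 had 9.35, 7.41 and 10.3 in the LBD40 knockout, against 12.3, 16.4 and 11.8 in WT. The 48 kDa protein on chromosome 4 had 3.79, 4.04 and 5.63 in the LBD40 knockout, against 6.42, 9.78 and 6.18 in WT. The 59 kDa protein on chromosome 1 had 1.75, 1.74 and 2.86 in the LBD40 knockout, against 3.75, 4.10 and 4.61 in WT. Their limma adjusted p values were close to the threshold (0.035, 0.036 and 0.0382). The 65 kDa protein on chromosome 1, the most abundant of this group, had 11.2, 12.03 and 10.9 in the LBD40 knockout, 11.9, 15.3 and 12.2 in the WRKY37 knockout and 11.5, 11.5 and 12.1 in WT. Its groups overlapped (limma adjusted p = 0.85 for the LBD40 knockout against WT).

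Proteins of the Prp19 complex, its partners and the catalytic steps had 11 tested genes. Of these 4 fell (36.4%, where 19.2% of all tested genes fell) and 7 were not called (median log2 change -0.23). CWC22-like on chromosome 8, named for the factor that in human cells brings the exon junction complex to the spliceosome, had 23, 27.2 and 34.3 in the LBD40 knockout, 40.2, 59.02 and 36.9 in the WRKY37 knockout and 54.4, 65.3 and 64.8 in WT. It fell to 45.8% of the WT mean (limma, log2 change -1.11 ± 0.19, adjusted p = 0.00228). SYF1 on chromosome 1, a scaffold of the Prp19-related complex, had 27.1, 32.7 and 34.6 in the LBD40 knockout, 42.7, 60.1 and 41.4 in the WRKY37 knockout and 60.5, 61.2 and 59.6 in WT. It stood at 52.1% of WT (limma, log2 change -0.93 ± 0.15, adjusted p = 0.00174). In both genes the 3 LBD40 libraries were below all 6 others. SLU7 on chromosome 9, which acts in the second catalytic step, fell to 51.5, 57.4 and 65.7 in LBD40 knockout seeds, against 93, 87.5 and 82.3 in WT seeds (limma, log2 change -0.59 ± 0.12, adjusted p = 0.00439).

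The remaining gene that fell in this group, the CWC22-like protein (DUF3245) on chromosome 1, had 9.12, 10.7 and 11.3 in the LBD40 knockout, against 16.7, 18.2 and 12.9 in WT (limma adjusted p = 0.014). Near the other end, SLU7 on chromosome 6 had 10.6, 12.8 and 11.9 in the LBD40 knockout, against 12.7, 13.6 and 12.6 in WT. ISY1-like on chromosome 5, a partner of SYF1, had 42.6, 44.2 and 52.9 in the LBD40 knockout, against 46.7, 49.5 and 46.8 in WT. The CWC22-like gene on chromosome 4 had 20.9, 22.02 and 28.3 in the LBD40 knockout, against 28.96, 38.5 and 31.6 in WT, without overlap, and an adjusted p of 0.0536 by limma. SPF27-like on chromosome 3, a core subunit of the Prp19 complex and the most abundant gene of the group, had 102, 104 and 109 in the LBD40 knockout, 128, 152 and 125 in the WRKY37 knockout and 117, 116 and 119 in WT. Its LBD40 libraries lay just below the WT libraries, and the difference did not pass limma (adjusted p = 0.22).

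SR proteins were the largest and most abundant group, with 19 tested genes. In LBD40 knockout seeds 13 fell (68.4%, where 19.2% of all tested genes fell) and 6 were not called (median log2 change -0.42). SR34 on chromosome 1, a plant relative of the human factor SRSF1, had 35.2, 38.2 and 46.1 in the LBD40 knockout, 60.5, 69.95 and 63.2 in the WRKY37 knockout and 92.9, 89.7 and 79.4 in WT. Its LBD40 libraries were below all 6 others and averaged 45.6% of WT, the largest decrease of the 96 genes (limma, log2 change -1.12 ± 0.12, adjusted p = 0.000342). RSZ22 on chromosome 8, an SR protein with a zinc knuckle, had 22.4, 25.9 and 35.2 in the LBD40 knockout, 37.1, 58.7 and 33.6 in the WRKY37 knockout and 56.9, 66.5 and 55.3 in WT. By the rule of choice no LBD40 library reached a WT library (limma, log2 change -1.09 ± 0.22, adjusted p = 0.00433). SCL28 on chromosome 1, related to the human factor SC35, had 29.7, 26.8 and 31.7 in the LBD40 knockout, 33.5, 47.5 and 45.1 in the WRKY37 knockout and 53.05, 52.2 and 50.8 in WT. Its LBD40 libraries were below all others (limma, log2 change -0.81 ± 0.14, adjusted p = 0.00209).

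The other tested genes described as SR34 fell as well. The related SR34A on chromosome 3 was not called (limma, log2 change -0.21 ± 0.11, adjusted p = 0.158). SR34 on chromosome 6 had 71.9, 69.7 and 82.3 in the LBD40 knockout, against 99.2, 104 and 94.8 in WT (limma, log2 change -0.41 ± 0.13, adjusted p = 0.028). SR34 on chromosome 9 had 154, 154 and 165 in the LBD40 knockout, against 214, 232 and 228 in WT (limma, log2 change -0.50 ± 0.12, adjusted p = 0.0104). Both RS31 genes, of a plant-specific SR class, fell (limma adjusted p = 0.00286 and 0.00438). On chromosome 1 the values were 15.2, 15.8 and 19.1 in the LBD40 knockout, against 28.8, 29.3 and 25.4 in WT. On chromosome 10 they were 49.9, 53.3 and 63.9 in the LBD40 knockout, against 89.6, 103 and 89.4 in WT. Whether the sizes differed between sister genes was not tested.

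The SR genes of highest level had smaller log2 changes. RS2Z32 on chromosome 5, the most abundant of all splicing genes, had 429, 454 and 479 in the LBD40 knockout, 620, 654 and 516 in the WRKY37 knockout and 534, 546 and 595 in WT. The LBD40 libraries were below the WT libraries, and the difference did not pass limma (log2 change -0.30 ± 0.11, adjusted p = 0.0591). It passed after scaling to equal library totals (limma adjusted p = 0.0446). The putative arginine/serine-rich splicing factor on chromosome 4 had 325, 332 and 347 in the LBD40 knockout, against 395, 442 and 418 in WT (limma, log2 change -0.32 ± 0.09, adjusted p = 0.0233). It lost its call without LBD40 knockout replicate 1 or 2 or WT replicate 2 or 3 (limma adjusted p 0.0649 to 0.0848). SR45 on chromosome 10, which bridges the particles at both splice sites, had 186, 187 and 209 in the LBD40 knockout, 206, 299.9 and 231 in the WRKY37 knockout and 216, 256 and 252 in WT. It did not pass (limma adjusted p = 0.106).

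RS40 on chromosome 11, again of a plant-specific class, had 156, 165 and 185 in the LBD40 knockout, 237, 290.2 and 234.2 in the WRKY37 knockout and 217, 236 and 224 in WT. It fell against WT (limma, log2 change -0.42 ± 0.11, adjusted p = 0.0162), a call lost without LBD40 knockout replicate 1 or 2 or WT replicate 2 (adjusted p 0.0560 to 0.0663). The SR genes furthest from a decrease were SCL30A on chromosome 1 and the arginine/serine-rich-like splicing factor on chromosome 4. SCL30A had 142, 154 and 169.8 in the LBD40 knockout, against 122, 150.2 and 141 in WT. The splicing factor on chromosome 4 had 201, 197 and 226 in the LBD40 knockout, against 183, 227 and 214 in WT. Neither passed the test, and the groups overlapped in both.

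**Figure D3:**
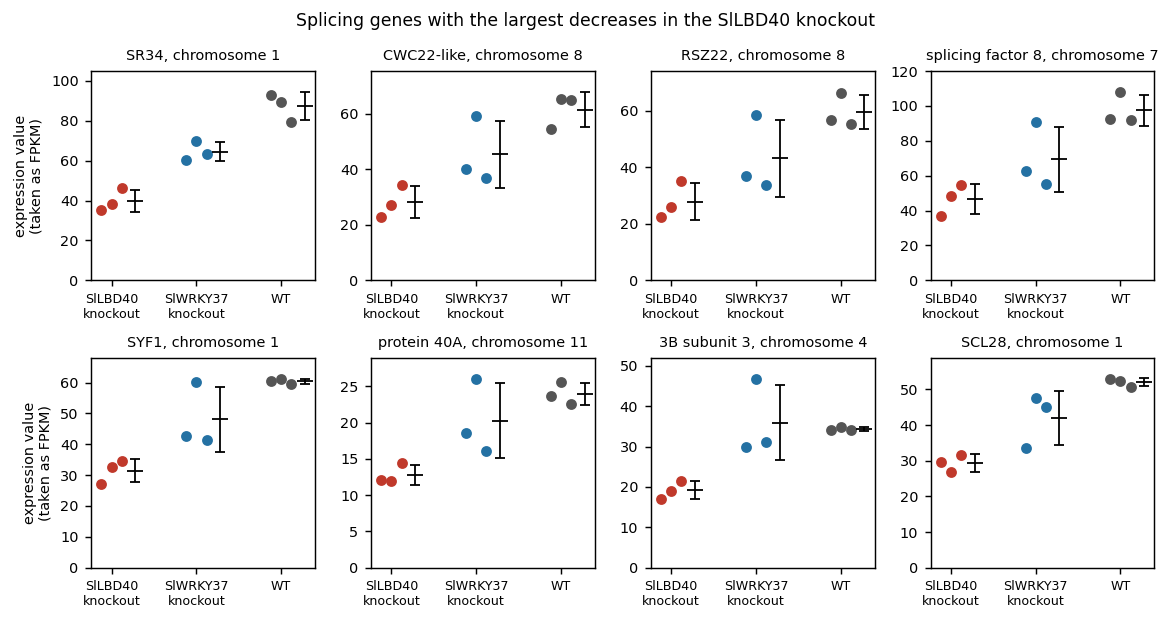
Expression value (taken as FPKM, axes from 0) in each library for the 8 splicing genes with the largest decreases in the LBD40 knockout against WT; points are the 3 libraries of a group and the black bar is the mean ± SD. The choice of genes required no overlap of these groups, so in each panel the 3 LBD40 libraries lie below the 3 WT libraries. SR34 on chromosome 1 had 35.2 to 46.1 in LBD40 knockout seeds and 79.4 to 92.9 in WT seeds.

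The rule also took 3 genes for regulation of nuclear pre-mRNA domain-containing proteins, which in human cells bind the tail of RNA polymerase II and are not spliceosome subunits. All 3 fell in LBD40 knockout seeds, where 19.2% of all tested genes fell, with a median log2 change of -0.65. Protein 1A on chromosome 2 had 14.9, 15.2 and 17.7 in the LBD40 knockout, 21.6, 30.2 and 23.9 in the WRKY37 knockout and 27.7, 29.9 and 27.2 in WT (limma, log2 change -0.79 ± 0.14, adjusted p = 0.00236). Protein 1B-like on chromosome 11 had 45.5, 47.1 and 45.9 in the LBD40 knockout, against 69.7, 72.7 and 69.1 in WT (limma, log2 change -0.60 ± 0.11, adjusted p = 0.00356). Of 7 genes whose description names no subunit, 4 fell (57.1%, beside the same 19.2%). The pre-mRNA-splicing factor on chromosome 12 had 83.7, 78.1 and 87.3 in the LBD40 knockout, 122, 153 and 124 in the WRKY37 knockout and 141, 134 and 144 in WT. Its LBD40 libraries were below every other library (limma, log2 change -0.74 ± 0.11, adjusted p = 0.00109). A pair of genes is described as splicing factor subunit. That on chromosome 4 fell, with 19.01, 13.7 and 20.3 in the LBD40 knockout, against 31.8, 29.8 and 27.1 in WT (limma adjusted p = 0.00916). That on chromosome 8 had 49.6, 43.9 and 51.4 in the LBD40 knockout, against 39.5, 40.1 and 39.5 in WT, all above WT without passing (limma adjusted p = 0.0979).

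Summed over all 130 genes, the splicing machinery took 0.726, 0.707 and 0.787% of the library total in LBD40 knockout seeds, 0.856, 1.03 and 0.858% in WRKY37 knockout seeds, and 0.886, 0.940 and 0.921% in WT seeds. The LBD40 libraries were the lowest 3 of the 9, and the WRKY37 libraries spread around WT. The means were 0.740 ± 0.0420% in the LBD40 knockout, 0.914 ± 0.0982% in the WRKY37 knockout and 0.916 ± 0.0276% in WT (SD, n = 3 each). Relative to WT, the LBD40 knockout stood at 80.8% for the whole sum. By role it stood at 66.7% for U1 proteins, 67.6% for the U4/U6.U5 particle, 75.6% for the minor spliceosome, 76.2% for the U2 group, 77.7% for the Prp19-related group, 80.01% for SR proteins, 82.0% for LSm proteins and 92.4% for the Sm ring. For the Sm ring the sums overlapped, with 0.193, 0.174 and 0.209% in LBD40 knockout seeds and 0.201, 0.216 and 0.208% in WT seeds. No test of these sums was made.

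**Figure D4:**
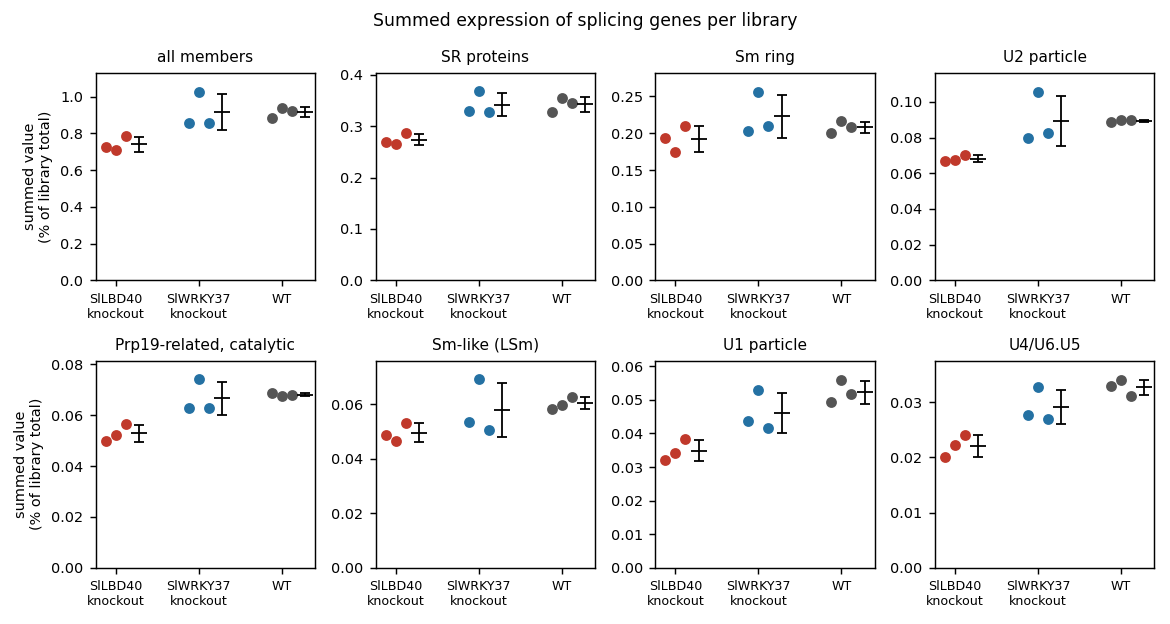
Summed value of splicing genes as a percent of the library total (vertical axes from 0) for all 130 genes and for 7 roles, in each library; points are libraries and the black bar is the mean ± SD of 3. The LBD40 libraries (0.707 to 0.787% for all 130 genes) lie below WT (0.886 to 0.940%), except in the Sm ring, where they overlap, and WRKY37 knockout replicate 2 is the highest point of its group in each panel.

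Some libraries held the highest value of their group for most splicing genes. WRKY37 knockout replicate 2 held the highest value of its group for 85 of the 96 genes (88.5%), where it did so for 52.7% of all tested genes, and it was the highest of all 9 libraries for 55. LBD40 knockout replicate 3 was the highest of its group for 82 genes (85.4%, against 53.5% of all), and LBD40 knockout replicate 1 was the lowest of all 9 for 46. WT replicate 2 was the highest of its group for 58 genes (60.4%, against 49.65% of all). Median-ratio scaling factors of the libraries were 0.928 to 1.06 in the LBD40 knockout, 0.941 to 1.13 in the WRKY37 knockout and 0.978 to 1.05 in WT. After that scaling 53 splicing genes were called in the LBD40 knockout against WT, 52 lower and 1 higher. The higher one, named after its value was seen, was the splicing factor subunit gene on chromosome 8. It was also called higher after scaling to equal totals, after quantile normalization, without WRKY37 knockout replicate 2, and when only the LBD40 knockout and WT were fitted. That last fit also called Sm E on chromosome 3 higher, with 55 genes lower.

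**Figure D5:**
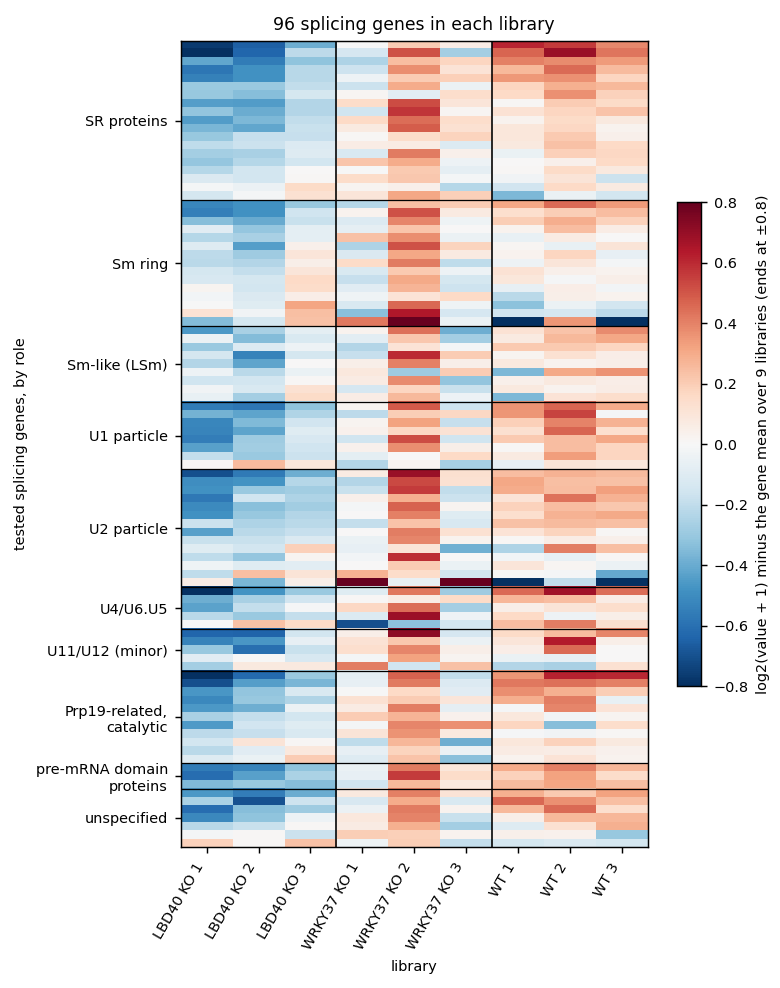
Log2(value + 1) of the 96 tested splicing genes (rows, by role and then by change in the LBD40 knockout) in the 9 libraries (columns), less the mean of each gene; red is above and blue below that mean, with the colours ending at ±0.8. Most rows are blue in the LBD40 knockout libraries, palest in replicate 3, and most are red in WRKY37 knockout replicate 2 (the highest of 9 for 55 genes) and in WT.

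The second comparison set SlWRKY37 knockout seeds against WT seeds. Splicing genes showed almost no called change: 1 of 96 rose, 0 fell by limma and 95 were not called, where 9.38% of all tested genes were called, 4.82% higher and 4.56% lower. At an unadjusted p below 0.05 by limma, 3 were higher and 9 lower, again without a count over all tested genes. At a minimum log2 change of 1 the 1 gene remained, where 4.45% of all tested genes were called, and with a minimum mean of 5, 0 of 90 were called, where 11.3% of all such genes were. The median log2 change was -0.06, beside 0.02 for all tested genes, with 58 negative and 38 positive. All 3 WRKY37 libraries lay below all WT libraries for 10 genes, against 13.1% of all tested genes, and above for 3, against 14.2%.

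The gene that rose, named here after its value was seen, was 3B subunit 4 on chromosome 12. It had 5.96, 1.10 and 3.69 in the WRKY37 knockout, 1.28, 0.70 and 1.26 in the LBD40 knockout and 0, 0.91 and 0 in WT. It thus passed the minimum mean of 1 through the WRKY37 knockout (limma, log2 change 1.72 ± 0.43, adjusted p = 0.0335). The WRKY37 libraries were all above WT, at a low level. The subunit 4 gene on chromosome 11 had 26.5, 24.1 and 19.4 in the WRKY37 knockout, against 21.6, 21.5 and 15.99 in WT, and was not called. Of the 8 named genes with the largest decreases in the LBD40 knockout, which were chosen for low values against the same WT libraries, 0 were called here, 7 had a negative and 1 a positive change. SR34 on chromosome 1 had a log2 change of -0.43 ± 0.12 (limma adjusted p = 0.0566), splicing factor 8 of -0.51 ± 0.19 (0.128) and CWC22-like on chromosome 8 of -0.46 ± 0.19 (0.173). 3B subunit 3 was the one with a positive change, 0.04 ± 0.17 (0.926). SR34 on chromosome 1 passed after scaling to equal library totals, after median-ratio scaling and after quantile normalization.

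This count rested on single libraries. Without WRKY37 knockout replicate 2, 6 splicing genes were called, 1 higher and 5 lower, and the median log2 change was -0.16. The count was 2 without LBD40 knockout replicate 3 or WT replicate 2 and 0 without any of the other 6 libraries. All tested genes were not counted in this way. No splicing gene was called in both knockouts against WT.

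The third comparison set the knockouts against each other. Splicing genes were again lower in LBD40 knockout seeds: 32 of 96 fell relative to WRKY37 knockout seeds, 0 rose by limma and 64 were not called, where 27% of all tested genes were called, 14.1% lower and 12.9% higher. At an unadjusted p below 0.05 by limma, 52 were lower and 1 higher, again without a count over all tested genes. No splicing gene was called with a change of at least 1 on the log2 scale, where 8.17% of all tested genes were and 2.29% were with a decrease that large. The median log2 change was -0.37, beside -0.08 for all tested genes, and 86 changes were negative. The LBD40 libraries all lay below the WRKY37 libraries for 50 genes, against 23.3% of all tested genes, and above for 1, against 19%.

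By role, 9 of 19 SR genes, 5 of 14 U2 genes, 5 of 11 Prp19-related genes, 3 of 8 U1 genes, 3 of 15 Sm genes and 0 of 9 LSm genes were called lower. Of all tested genes 14.1% were called lower in this comparison. Among called genes the furthest down was 3B subunit 3 (limma, log2 change -0.85 ± 0.17, adjusted p = 0.00619), whose values above show the LBD40 libraries at most 21.6 and the WRKY37 libraries at least 29.9. SR34 on chromosome 1 (limma, log2 change -0.69 ± 0.12, adjusted p = 0.00437) and the pre-mRNA-splicing factor on chromosome 12 (limma, log2 change -0.67 ± 0.11, adjusted p = 0.00294) followed. These 3 genes were picked among called genes whose LBD40 and WRKY37 libraries did not overlap. That separation, here and where their values are given above, is therefore no further evidence. Of the 47 genes lower than WT, 27 were also lower than the WRKY37 knockout, and 5 were lower than the WRKY37 knockout without being called against WT. These comparisons share the LBD40 libraries, and the same overlap was not counted over all tested genes. The 27 and 5 therefore do not set the splicing genes apart.

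Leaving out libraries changed this count. It was 6 without LBD40 knockout replicate 1, 6 without LBD40 knockout replicate 2, 14 without WRKY37 knockout replicate 2, and 9 when only the 2 knockouts were fitted. Again no such counts were made over all tested genes. The 6 genes called without each library in turn were RS40 on chromosome 11, SR34 on chromosome 1, the serine/arginine-rich splicing factor on chromosome 12, 3B subunit 3, the pre-mRNA-splicing factor on chromosome 12 and pre-mRNA domain-containing protein 1A.

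Splicing is coupled to the capping, cleavage, export and decay of mRNA. Genes for these steps that the rule did not take were read beside the splicing genes, together with U2AF, hnRNP and SR-type genes and with 95 RNA helicases taken by name, whatever their step. Of the 192 tested, 95 fell in LBD40 knockout seeds, 53 of them helicases, and 7 rose, where 19.2% of all tested genes fell and 18% rose. Their median log2 change was -0.41. In the WRKY37 knockout against WT 3 fell and 2 rose, where 4.56% of all tested genes fell and 4.82% rose. Between the knockouts 75 were lower and 6 higher in LBD40 seeds, where 14.1% and 12.9% of all tested genes were. In the LBD40 knockout against WT, 4 of 5 such genes for U2AF, which marks the 3′ splice site for U2, fell and 0 rose. U2AF genes that the rule did take were mixed. Large subunit A on chromosome 2 was not called (limma adjusted p = 0.594). The U2 auxiliary factor-like gene on chromosome 1 and U2AF-associated protein 2 on chromosome 11 fell (limma adjusted p = 0.0203 and 0.0144). Of the RNA helicases 53 of 95 fell, with 3 higher, as did 5 of 10 hnRNP and related RNA-binding proteins, with 0 higher, and 8 of 13 cap-binding and export genes, with 0 higher. For cleavage and polyadenylation, a list that holds poly(A)-binding proteins too, 15 of 46 fell and 3 rose. For the exon junction and nonsense-mediated decay 4 of 6 fell and 0 rose, and for the exosome 4 of 9 fell and 0 rose. For further SR-type proteins 2 of 8 fell and 1 rose.

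The U2AF large subunit on chromosome 2 (copy 1) had 38.9, 43.5 and 46.1 in the LBD40 knockout, 66.95, 104 and 78.1 in the WRKY37 knockout and 84.4, 92.6 and 90.8 in WT. Its LBD40 libraries did not overlap the other groups (limma, log2 change -1.04, adjusted p = 0.00102). The helicase DEAH-box12 on chromosome 4 had 3, 4.77 and 3.69 in the LBD40 knockout, 7.47, 11.4 and 11.2 in the WRKY37 knockout and 16.3, 12.9 and 14.1 in WT (limma, log2 change -1.69, adjusted p = 0.000433). UPF2 on chromosome 4, a core factor of nonsense-mediated decay, had 29.5, 34.4 and 35.9 in the LBD40 knockout, 44.3, 54.8 and 44.6 in the WRKY37 knockout and 53.4, 59.05 and 56.5 in WT (limma, log2 change -0.75, adjusted p = 0.00171). THO complex subunit 2 on chromosome 5, which couples transcription to export, had 18.3, 22.7 and 23.7 in the LBD40 knockout, 30.96, 41.5 and 31.9 in the WRKY37 knockout and 40.1, 44.8 and 42.6 in WT (limma, log2 change -0.95, adjusted p = 0.00118). These 4 genes were drawn from the up to 2 called genes of each list with the smallest adjusted p. Their low LBD40 values against WT therefore follow from the choice. In all 4 the LBD40 libraries were also below every WRKY37 library, and in none was the WRKY37 knockout called against WT.

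Of the 130 splicing genes 34 were not tested, 21 of them listed at 0 in all 9 libraries and 13 above 0 in at least 1. The highest single value among them was 1.29. The highest mean was 0.722, that of a CWC22-like gene on chromosome 3 (copy 2), and the lowest tested mean was 1.06, that of the U11/U12 25 kDa protein-like gene on chromosome 6. None of the 10 genes described as DHX15, the helicase that takes spent spliceosomes apart, reached the minimum, and 8 were listed at 0 throughout. Of the 5 untested genes of the U4/U6.U5 particle, 4 were listed at 0, among them a second gene for splicing factor 8 on chromosome 6. Of the 9 untested Prp19-related genes, 2 were listed at 0, both described as SYF1.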

How the data were processed

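Per the labels' protocols, total RNA of seeds imbibed for 6 h was extracted with a Qiagen RNeasy kit and made into libraries with a SMARTER mRNA-Seq kit. Per the submitters' processing notes, TopHat2, HISAT2, StringTie and Cufflinks were used. Versions, order, build and annotation: not given in the sources used here. Deposited values carry 2 decimals and were taken as FPKM, a unit that no header states. The deposited column of WT replicate 1 touches the gene names and was read by character position. The unit other was recorded for it during the re-analysis, not by the submitters. Its values were taken as FPKM like those of the other columns.

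The 18346 genes whose mean over all libraries reached 1 were fitted on log2(value + 1) with limma 3.58.1 (trend) in R 4.3.3. The fit took the 9 libraries together, with genotype alone, and p-values were adjusted by Benjamini-Hochberg. The code was tested on simulated data, with 100 genes changed at each of 2 sizes. Of changes of 0.5 on the log2 scale 10% were recovered, and of changes of 1, 51%. Far fewer genes changed there than were called in the LBD40 knockout, so these shares do not carry over directly. A gene that was not called is not shown to be unchanged. Sums and figures used Python 3.11.15, pandas 2.3.3, numpy 2.4.6 and matplotlib 3.10.9. Splicing genes, roles and the other RNA-processing lists were found by text patterns in descriptions, and were chosen with earlier results of these data known. The role patterns were set by hand after the descriptions were read.

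By rule, 23 splicing genes are named. The rule took the 8 most abundant, the most abundant of each role and those called in both knockouts. It also took genes with the largest called change, no overlap and a group mean of 5 or more. Of such genes it allowed 8 higher and 8 lower in the LBD40 knockout against WT. It allowed 5 and 5 in the WRKY37 knockout against WT and 3 and 3 between knockouts. Up to 2 called genes per other list were allowed as well, and these are not among the 23. Further splicing genes were named, after their values were seen, as sister genes of the 23, other subunits of a role, or ends of its range.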

Additional observations from a re-analysis of the deposited data

Results flagged for a closer look

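For 3 of 96 splicing genes (3.12%) every LBD40 library lay below and every WRKY37 library above the WT mean and the knockouts differed in the comparison already given, in which WT takes no part. Of all tested genes 6.61% were called between the knockouts with their libraries on opposite sides of the WT mean, in either order. RS40 on chromosome 11 had 156, 165 and 185 in LBD40 knockout seeds, 237, 290.2 and 234.2 in WRKY37 knockout seeds and 217, 236 and 224 in WT seeds, and the LBD40 minus WRKY37 difference was -0.58 ± 0.11 on the log2 scale (limma adjusted p = 0.00605). It was called without each library in turn.

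SPF27-like on chromosome 3 had 102, 104 and 109 in LBD40 knockout seeds, 128, 152 and 125 in WRKY37 knockout seeds and 117, 116 and 119 in WT seeds, with a difference between knockouts of -0.35 ± 0.10 (limma adjusted p = 0.0266). It lost its call without LBD40 knockout replicate 1 or 2 (limma adjusted p = 0.089 and 0.0835). Factor 18 on chromosome 9, which acts in the second catalytic step, had 53.8, 56.3 and 58.1 in LBD40 knockout seeds, 74.5, 78.3 and 66.2 in WRKY37 knockout seeds and 68.5, 63.5 and 65.6 in WT seeds, with a difference of -0.37 ± 0.10 (limma adjusted p = 0.0208). Neither was among the 6 genes called without each library in turn, and neither was called in the LBD40 knockout against WT (limma adjusted p = 0.22 for SPF27-like and 0.0904 for factor 18). None of the 3 was called in the WRKY37 knockout against WT.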

How the results depend on the processing

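The median log2 changes kept their sign under each alternative tried in both comparisons of the LBD40 knockout. Without each library in turn, they ran from -0.41 to -0.33 against WT, from -0.44 to -0.26 against the WRKY37 knockout, and from -0.16 to 0.01 in the WRKY37 knockout against WT. Called splicing genes without each library in turn numbered 26 to 54 for the LBD40 knockout against WT, 0 to 6 for the WRKY37 knockout against WT and 6 to 38 between the knockouts. Other RNA-processing genes numbered 60 to 118 in the LBD40 knockout (102 with all libraries) and 0 to 9 in the WRKY37 knockout (5 with all). Calls among all tested genes were not counted without each library.

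With a minimum log2 change of 1, 4 splicing genes were called in the LBD40 knockout against WT and 0 between the knockouts, and 11 and 1 other RNA-processing genes in the LBD40 and WRKY37 knockouts. Between the knockouts 49 splicing genes were called after quantile normalization and 9 when only those groups were fitted. In the WRKY37 knockout against WT splicing genes numbered 3 after scaling to equal totals, 5 after median-ratio scaling, 3 after quantile normalization, and 0 each with a minimum mean of 5, with no low-value filter, with only the groups compared and with the replicate block. The other RNA-processing genes numbered 10 after scaling to equal totals, 13 after median-ratio scaling, 14 after quantile normalization, 1 with no low-value filter, 0 with only the groups compared and 0 with the block. Without its 3 most abundant genes the summed share was 0.629% in the LBD40 knockout, 0.775% in the WRKY37 knockout and 0.774% in WT.

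With the replicate number as a block, 40 splicing genes were called in the LBD40 knockout against WT and 24 between the knockouts. Of 9 pairs of same-numbered libraries 0 had deviations correlated over 0.1 (-0.104 to 0.0633), so the numbers were not treated as pairs. The other lists' export pattern was corrected after the data were seen; as first written it gave 106 and 6 calls. Limits are the inferred unit, the unknown depth, shortened gene IDs, and 3 libraries a group whose separate origin is not stated. The cause of the shifts between settings was not tested.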
